A study of Homo sapiens with 36 samples.

Results

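The BCL2 family controls the mitochondrial step of programmed cell death, and 10 of its genes were followed here across 36 RNA sequencing libraries of pancreatic ductal adenocarcinoma cells. The 10 members, chosen by symbol, were BCL2L1, MCL1, BCL2A1, BCL2L11, BBC3, PMAIP1, BID, BIK, BAX and BAK1, of 58243 genes in the count table. The cells were of 3 established human lines, PANC-1, BxPC-3 and MIA PaCa-2, which received DMSO as vehicle, GW3965, a synthetic agonist of LXR, or 1E5 or 3A4, a pair of code-named ligands that the labels call inverse agonists of LXR, the liver X receptors that sense oxysterols. Ligands were given at 10 µM for 48 h, and each of the 12 groups held 3 libraries. The labels number these libraries as biological replicates without saying whether cultures were separate, and the p-values reflect only how much the libraries of a group vary. The labels name RPMI 1640 as the medium of BxPC-3 and DMEM as that of MIA PaCa-2 and PANC-1, each supplemented with 10% serum. In comparisons of BxPC-3 with either other line, line and medium cannot be told apart. The labels give no genotype.

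BCL2 family proteins meet at the outer mitochondrial membrane. BAX and BAK1 open pores in it that release cytochrome c, the guardians BCL-XL (encoded by BCL2L1), MCL1 and BFL1 (encoded by BCL2A1) hold them shut, and the BH3-only proteins bind the guardians or the pore formers to promote death. Among the BH3-only members BCL2L11 encodes BIM, BBC3 encodes PUMA and PMAIP1 encodes NOXA, all genes known for control at the level of transcription. BID links death receptors to mitochondria after cleavage by caspase-8, and BIK encodes a BH3-only protein of the endoplasmic reticulum. In pancreatic cancer cells MCL1 and BCL-XL are known as the main guardians on which survival depends. Pooled RNA cannot separate a lower level in every cell from fewer cells that express the gene.

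On the build GRCh38 with GENCODE 29, the guardians lay at chr20:31664452-31723989 (BCL2L1, minus strand), chr1:150574551-150579738 (MCL1, minus) and chr15:79960889-79971446 (BCL2A1, minus). The BH3-only genes lay at chr2:111119378-111168447 (BCL2L11, plus), chr19:47220822-47232766 (BBC3, minus), chr18:59899948-59904306 (PMAIP1, plus), chr22:17734138-17774770 (BID, minus) and chr22:43110748-43129712 (BIK, plus). The pore formers lay at chr19:48954815-48961798 (BAX, plus) and chr6:33572547-33580293 (BAK1, minus). Other annotated genes overlap 6 members. ABALON (12383 counts over all libraries, beside 124268 of BCL2L1) lies antisense within BCL2L1. MIR4435-2HG lies antisense to BCL2L11 and held more counts (21630) than BCL2L11 itself (13436) over all libraries. ADAMTSL4-AS1 overlaps MCL1 and held 229 counts beside 261741, and the genes that overlap BBC3, BAK1 and BID held 35, 111 and 2 counts. The BAK1 pseudogene BAK1P1 held 769 counts beside 46359 for BAK1. Whether the counting used the strand is not given in the sources used here, so BCL2L11 is reported as uncertain.

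The promoters of the 3 BH3-only or guardian genes that rose most with 1E5 in MIA PaCa-2 and have an entry in the RefSeq promoter table (GRCh38.p14, 8 of 10 members matched) are shown to place these responses beside their sequence. Each run is 5′ to 3′ on the gene's strand and ends at the base before the more upstream of the RefSeq and GENCODE start sites. Capitals mark matches on either strand to TGACG (the core of an ATF/CREB site), TGANTCA (an AP-1 site) or GGGCGG (a GC box).
PMAIP1 chr18:59899746-59899947: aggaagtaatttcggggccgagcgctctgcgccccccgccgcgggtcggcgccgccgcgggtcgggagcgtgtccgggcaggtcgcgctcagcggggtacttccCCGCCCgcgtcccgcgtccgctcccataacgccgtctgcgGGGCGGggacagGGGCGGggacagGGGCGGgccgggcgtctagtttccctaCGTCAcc
BCL2L1 chr20:31723990-31724213: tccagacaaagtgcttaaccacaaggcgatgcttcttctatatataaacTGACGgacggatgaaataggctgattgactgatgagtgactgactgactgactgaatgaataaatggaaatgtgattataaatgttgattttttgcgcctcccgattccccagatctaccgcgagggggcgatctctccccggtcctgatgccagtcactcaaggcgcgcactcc
BBC3 chr19:47232767-47232917: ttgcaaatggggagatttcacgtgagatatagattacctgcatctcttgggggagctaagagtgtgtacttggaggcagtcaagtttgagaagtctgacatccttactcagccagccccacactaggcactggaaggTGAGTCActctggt
The PMAIP1 stretch held TGACG on its opposite strand, read as CGTCA, with its first base at -55 from the RefSeq start, and GC boxes at -146, -106, -94 and -82. BCL2L1 had TGACG at -201 and BBC3 had TGAGTCA at -113 from the RefSeq start of the window shown. Another BCL2L1 window, not shown, had a GC box at -5 and no TGACG. Over all 35116 promoter windows of 300 bases, TGACG was found in 24.6%, GGGCGG in 45.0% and TGANTCA in 7.71%. The search also covered TGATGNAA (3.62% of windows), GTAAACA (3.42%) and the LXR element DR4, as GGTCA repeated in the same direction with 5 bases between (0.0854%), all on both strands. Among the members' windows GTAAACA was found in BCL2L11 at -223, TGATGNAA in BCL2A1 at -63 and TGACG in BAX at -134, and the LXR element in none of the 8 matched members. GC boxes were also found in BCL2L11, BAK1, BAX and BID, the last of which fell with 1E5 in MIA PaCa-2. These are matches of letters and not measured sites.

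The libraries of PANC-1 held 14960970 to 26026684 counts each and those of BxPC-3 held 19605935 to 25888304. In MIA PaCa-2 depth moved with treatment, from 3609582 to 10996848 counts with DMSO against 23675670 to 25503827 with 1E5. The share of counts on mitochondrial genes also moved with 1E5. It was 2.04% ± 0.72 (SD, n = 3) against 7.55% ± 0.0304 with DMSO in MIA PaCa-2, and 2.69%, 6.59% and 3.91% in the 3 PANC-1 libraries against 6.82% ± 0.708. Levels are given as counts per scaled library total in units of 1000000 (CPM). The sum of 7 epithelial markers was 542 to 608 CPM with 1E5 against 1370 to 1700 with DMSO in MIA PaCa-2, 775 to 964 against 3290 to 5120 in PANC-1, and 5220 to 6770 over all groups of BxPC-3. EPCAM (at most 0.111 CPM) and CDH1 (at most 0.767 CPM) were near 0 in MIA PaCa-2. The sum of 5 fibroblast markers was also lower with 1E5, 9.18 to 27.9 against 247 to 257 CPM in MIA PaCa-2 and 4.93 to 16.8 against 53.9 to 180 CPM in PANC-1, with DCN and LUM at 0 in both lines. Of 4 immune markers, PTPRC (CD45) was at 0 in BxPC-3 and MIA PaCa-2 and at most 0.0803 CPM in PANC-1, CD3E was at 0 in MIA PaCa-2 and PANC-1 and at most 1.06 CPM in BxPC-3, CD14 reached 19.1 CPM in MIA PaCa-2 and CD68, which is also known outside leukocytes, 77.6 CPM in PANC-1. Their sum was 4.68 to 8.04 CPM with 1E5 against 21.1 to 35.1 with DMSO in MIA PaCa-2. The PANC-1 libraries had a sum of 44.9 to 78.1 CPM with 1E5 and 46.6 to 47.6 with 3A4 against 9.74 to 16.2 with DMSO. The part of depth, mitochondrial share and marker levels in the members' results was not tested, apart from the fit at equal depth given below.

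Before any ligand, MCL1 was the most abundant member per length in all 3 lines, and the order below it differed between lines. In CPM per kilobase of exons, MCL1 stood at 43.4 ± 3.06 in PANC-1, 66.3 ± 6.43 in MIA PaCa-2 and 102 ± 4.34 in BxPC-3 (mean ± SD, n = 3 here and for all group values). BCL2L1 was next in BxPC-3 (51.8 ± 2.12) and PANC-1 (34.2 ± 1.78), while in MIA PaCa-2 its level of 15.6 ± 2.73 lay below BAX (28.7 ± 0.69), BID (22.6 ± 1.16) and BAK1 (22 ± 1.4). BID and BAK1 overlapped between libraries there, and in BxPC-3 the libraries of BAK1, PMAIP1, BAX and BIK overlapped. In PANC-1 the order MCL1, BCL2L1, BAK1 (22.4 ± 1.97), BAX (13.4 ± 1.33) and BID (10.3 ± 1.46) had no overlap between neighbours. BBC3, BCL2L11 and BCL2A1 stayed under 10 CPM per kilobase in every DMSO library.

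**Figure D1:**
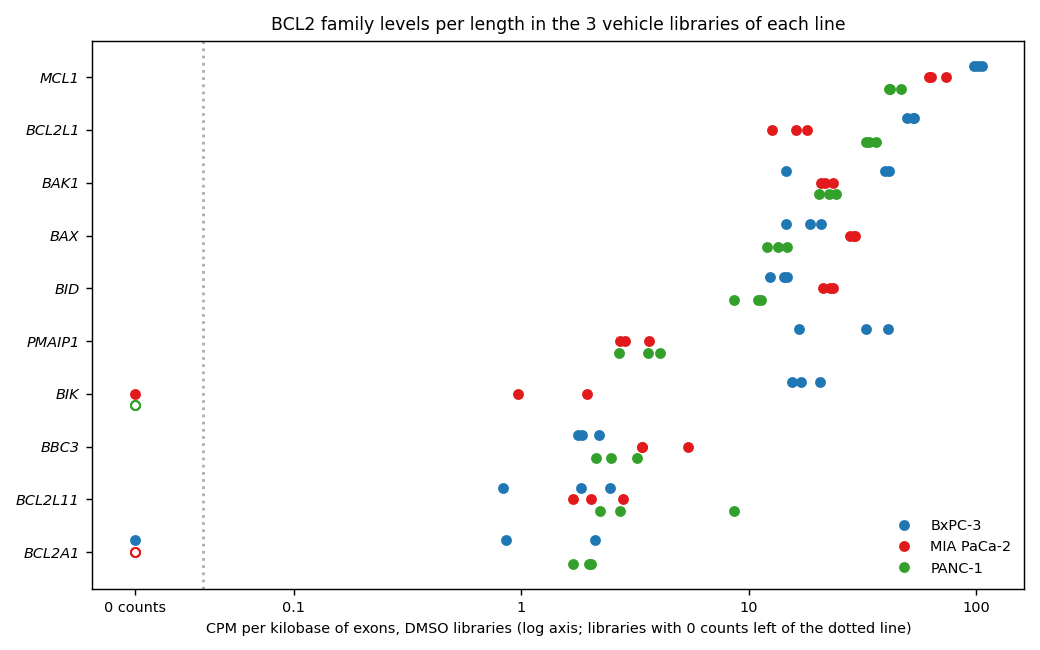
Level of each BCL2 family member per kilobase of exons in the 3 DMSO libraries of each line, on a log axis, with libraries at 0 counts left of the dotted line. MCL1 lies farthest right in each line, PMAIP1 and BIK are high in BxPC-3, BIK has no counts in PANC-1 DMSO libraries and BCL2A1 has none in MIA PaCa-2.

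Between untreated lines, BxPC-3 had the highest PMAIP1 and BIK. PMAIP1 (NOXA) was 8.70-fold higher in BxPC-3 than in PANC-1 (log2 difference 3.12 ± 0.349 SE, adjusted p = 1.11e-08) and 9.61-fold higher than in MIA PaCa-2 (3.27 ± 0.371, adjusted p = 1.18e-08). BIK gave 1159 counts in the BxPC-3 DMSO libraries and 0 in those of PANC-1, at least 414-fold higher against a floor of 3 counts over the group, and was 20.3-fold higher than in MIA PaCa-2 (adjusted p = 1.28e-05). BIK had 17 counts in the MIA PaCa-2 DMSO libraries, at least 22.7-fold above those of PANC-1. Leaving out MIA PaCa-2 DMSO replicate 3 moved the log2 difference of BIK between BxPC-3 and MIA PaCa-2 from 4.34 to 5.03 and the fitted one between MIA PaCa-2 and PANC-1, which is no bound, from 7.09 to 6.44. MIA PaCa-2 stood lowest for BCL2L1, 3.30-fold below BxPC-3 (adjusted p = 2.75e-11) and 2.18-fold below PANC-1 (adjusted p = 1.14e-07). It was highest for BAX, 2.14-fold above PANC-1 (adjusted p = 2.23e-09), and for BID, 2.19-fold above PANC-1 (adjusted p = 2.64e-08). BxPC-3 lay below MIA PaCa-2 for both BAX (log2 difference -0.67 ± 0.112, adjusted p = 7.69e-06) and BID (-0.70 ± 0.132, 4.07e-05), and above PANC-1 for BAX (0.43 ± 0.111, 0.0018) and BCL2L1 (0.60 ± 0.139, 0.000545).

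BCL2A1 (BFL1) gave 0 counts in all 12 MIA PaCa-2 libraries, which allows up to 0.0174 CPM over the line. With DMSO it was at least 14.6-fold higher in PANC-1 and at least 7.60-fold higher in BxPC-3 than in the MIA PaCa-2 DMSO libraries, against a floor of 3 counts over the group, and 1 BxPC-3 library also had 0. Of the 75 BxPC-3 counts 54 were in replicate 3, and without it the fitted log2 difference from MIA PaCa-2, which is no bound, went from 7.47 to 6.26. MCL1 was 2.35-fold higher in BxPC-3 than in PANC-1 (adjusted p = 2.79e-08), higher than in MIA PaCa-2 (0.62 ± 0.144, 0.000519) and 1.53-fold higher in MIA PaCa-2 than in PANC-1 (adjusted p = 0.000707). BCL2L11 was 2.63-fold lower in BxPC-3 than in PANC-1 (adjusted p = 0.0265), a call that ended without PANC-1 DMSO replicate 1 (log2 difference -0.53 in place of -1.40, adjusted p = 0.432), without BxPC-3 DMSO replicate 2 (0.132) or 3 (0.0544), and in a fit of only those groups (0.0699). BBC3 was 2.06-fold lower in BxPC-3 than in MIA PaCa-2 (adjusted p = 0.00822), lost without MIA PaCa-2 DMSO replicate 3 (0.0936), and BID was 1.35-fold higher in BxPC-3 than in PANC-1 (0.00648), lost without PANC-1 DMSO replicate 2 (0.0669). BAK1 passed in no line comparison, with 70.8 ± 33.4 CPM in the BxPC-3 DMSO libraries as scaled over all libraries. Scaled within BxPC-3, these libraries had 82.9, 85.8 and 29.9 CPM. Without the lowest of these, replicate 3, BAK1 was called higher in BxPC-3 than in PANC-1 (adjusted p = 0.00887) and MIA PaCa-2 (0.00631), and BCL2A1 lower than in PANC-1 (0.0277). BCL2L11 was called lower in MIA PaCa-2 than in PANC-1 without PANC-1 DMSO replicate 3 (0.0441, against 0.104 with it). BBC3 against PANC-1 (-0.43 ± 0.318 for BxPC-3 and 0.62 ± 0.327 for MIA PaCa-2), BCL2L11 between BxPC-3 and MIA PaCa-2 (-0.34 ± 0.539) and PMAIP1 between MIA PaCa-2 and PANC-1 (-0.14 ± 0.363) were not called. These contrasts share the DMSO libraries. In all, 7 members passed between BxPC-3 and PANC-1 (52.5% of all 22132 genes tested passed), 8 between BxPC-3 and MIA PaCa-2 (57.4%) and 6 between MIA PaCa-2 and PANC-1 (51.2%).

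With 1E5 in MIA PaCa-2, the guardians BCL2L1 and MCL1 and the BH3-only genes PMAIP1 and BBC3 rose, and the BH3-only gene BID fell. BCL2L1 rose 4.15-fold, PMAIP1 4.84-fold, BBC3 3.68-fold and MCL1 2.08-fold, while BID was 1.97-fold lower. These were 5 of the 9 members tested, where 47% of all genes were called, 23.6% higher and 23.4% lower. The median log2 fold change of the 9 members was 0.84, against 0.05 over all 16254 genes. The 1E5 and DMSO libraries did not overlap for 6 of the 9 members and for 60.5% of all genes.

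BCL2L1 (BCL-XL) had 63.4, 54.9 and 46.1 CPM in the DMSO libraries of MIA PaCa-2 and 242, 231 and 213 CPM with 1E5. Every 1E5 library lay above every DMSO library, with a log2 fold change of 2.05 ± 0.165 (SE) and an adjusted p = 2.17e-06. PMAIP1 (NOXA) had 6.76, 8.37 and 6.67 CPM with DMSO and 41.9, 31.1 and 33.9 CPM with 1E5, again without overlap (2.28 ± 0.251, adjusted p = 1.94e-05). BBC3 (PUMA) went from 11.4, 11.1 and 18.9 CPM to 39.8, 43.3 and 66.4 CPM (1.88 ± 0.302, adjusted p = 0.000286). The 1E5 library of replicate 3 was the highest for BBC3 and for MCL1, which had 340, 285 and 296 CPM with DMSO and 613, 554 and 747 CPM with 1E5 (1.05 ± 0.147, adjusted p = 1e-04). BID had 100.1, 108 and 111 CPM with DMSO and 59.8, 51.4 and 50.5 CPM with 1E5 (-0.98 ± 0.140, adjusted p = 0.000126), and the groups did not overlap.

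BCL2L11 (BIM) was not called by edgeR in that comparison, with 19.6, 11.6 and 14.8 CPM with DMSO and 32.2, 37.4 and 12.3 CPM with 1E5 (adjusted p = 0.0681). Its 1E5 replicate 3 lay within the DMSO range, and without it the adjusted p was 0.00328. It was also called by DESeq2 (0.0334) and with no filter on low counts (0.039), and its adjusted p ran up to 0.264 over all alternatives. MIR4435-2HG, antisense to it, was lower with 1E5 (log2 fold change -0.83 ± 0.194, adjusted p = 0.00378). ABALON, antisense to BCL2L1, was higher (2.83 ± 0.636, adjusted p = 0.00293), at 16.9 ± 2.45 CPM beside 228 ± 14.6 CPM of BCL2L1. BAX (log2 fold change -0.11, 95% interval -0.35 to 0.13), BAK1 (-0.45, -1.14 to 0.24) and BIK (0.58, -1.79 to 2.95) were not called. With every MIA PaCa-2 library thinned to the smallest total the same 5 members were called, with log2 fold changes of 2.00 for BCL2L1, 2.26 for PMAIP1, 1.89 for BBC3, 1.00 for MCL1 and -1.04 for BID.

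**Figure D2:**
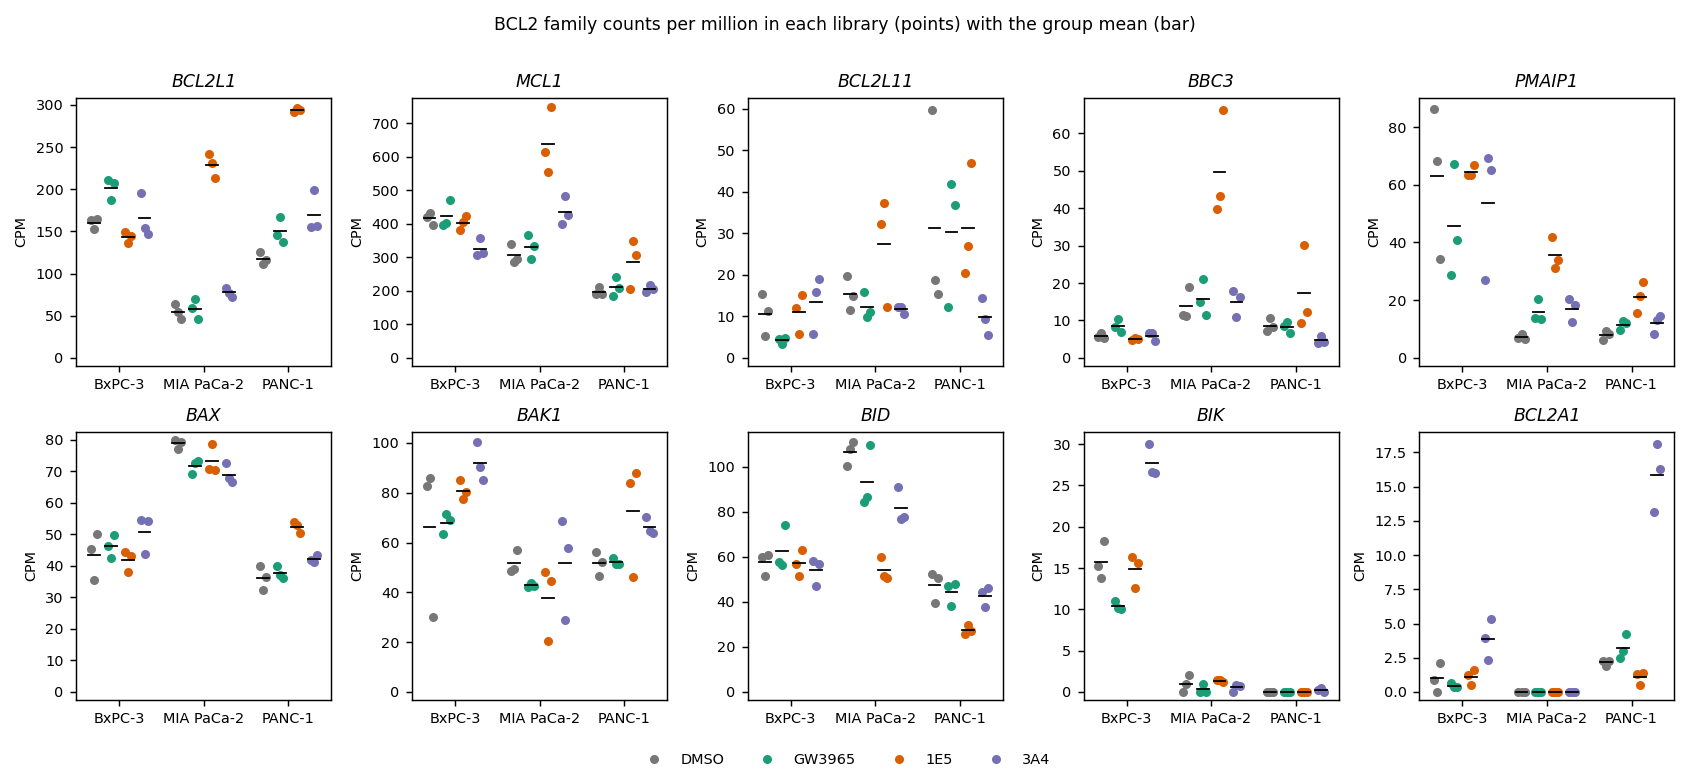
CPM of each BCL2 family member in every library, grouped by line and coloured by treatment, with bars at the group means and axes that start at 0. The 1E5 libraries of BCL2L1 lie apart from the DMSO libraries upward in MIA PaCa-2 and PANC-1, BID lies apart downward in both, and the 3A4 libraries of BCL2A1 in PANC-1 (13.2 to 18.1 CPM) lie above all other libraries.

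With 1E5 in PANC-1 the guardian BCL2L1 and the BH3-only gene PMAIP1 rose again and BID fell, and the pore former BAX also rose. BCL2L1 had 125, 112 and 117 CPM with DMSO and 292, 296 and 294 CPM with 1E5, a 2.49-fold rise (log2 fold change 1.32 ± 0.119, adjusted p = 1.16e-05). The 1E5 libraries differed among themselves by less than 4 CPM and lay far from the DMSO range. PMAIP1 went from 6.27, 9.41 and 8.39 CPM to 15.6, 21.4 and 26.4 CPM (1.39 ± 0.258, adjusted p = 0.00141). BAX went from 39.8, 32.3 and 36.4 CPM to 53.8, 52.8 and 50.3 CPM (0.53 ± 0.103, adjusted p = 0.00184), and BID from 52.5, 39.6 and 50.7 CPM to 25.7, 29.7 and 26.9 CPM (-0.79 ± 0.143, adjusted p = 0.00119). In each of these 4 genes the groups did not overlap, as for BCL2A1, which makes 5 of 9 members, beside 47.6% of all genes.

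MCL1 and BCL2A1 were also called in that comparison, so 6 of 9 members tested passed, where 39.1% of all genes did (19.7% higher, 19.3% lower). MCL1 had 189, 212 and 191 CPM with DMSO and 205, 347 and 306 CPM with 1E5, so 1 library with 1E5 lay inside the DMSO range (0.54 ± 0.170, adjusted p = 0.0268). That call ended without DMSO replicate 1 (0.0798) or 3 (0.0821), without 1E5 replicate 2 (0.0813) or 3 (0.0792), and in a fit of only those groups (0.0861). BCL2A1 had 2.27, 1.91 and 2.29 CPM with DMSO and 1.31, 0.533 and 1.39 CPM with 1E5 (-0.99 ± 0.332, adjusted p = 0.0344). Its call ended in 6 of 12 alternatives, with adjusted p up to 0.31, among them those without DMSO replicate 1 (0.0798), DMSO replicate 3 (0.0872) or 1E5 replicate 2 (0.0607).

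BBC3 was near the threshold in PANC-1, at 7.06, 10.6 and 8.19 CPM with DMSO and 9.42, 30.1 and 12.3 CPM with 1E5 (log2 fold change 1.00 ± 0.378, adjusted p = 0.0556). 1E5 replicate 2 alone lay far above the others. That library also had the highest mitochondrial share of the 1E5 libraries and the lowest BAK1, 46.2 CPM beside 84.1 and 88.1 CPM. BAK1 was not called (0.50 ± 0.195, adjusted p = 0.0631), and without that library its adjusted p was 0.000168, while BBC3 was called in 5 of 12 alternatives (adjusted p from 0.0148 to 0.315 over all of them), among them those without 1E5 replicate 1 (0.0148) or 3 (0.0452), DESeq2 (0.0289) and all 36 libraries in 1 fit (0.0181). BCL2L11 did not pass (0.01 ± 0.575), with 59.8, 18.7 and 15.3 CPM in the DMSO libraries. The median log2 fold change of the 9 members was 0.53, against 0.02 over all 18544 genes.

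In BxPC-3 1E5 gave no called member of 10 tested, and no called gene at all among 18042 (0% called) by edgeR, with 572 genes and 0 members at an unadjusted p under 0.05 and 9 genes and 0 members by DESeq2. BCL2L1 had 163, 153 and 165 CPM with DMSO and 149, 136 and 144 CPM with 1E5 (log2 fold change -0.16, 95% interval -0.41 to 0.09). PMAIP1 had 86.1, 68.4 and 34.4 CPM with DMSO and 63.3, 63.2 and 66.7 CPM with 1E5 (0.03, -0.83 to 0.90), so the DMSO libraries spread around the 1E5 libraries. For BCL2L1 and BBC3 the 1E5 libraries all lay below the DMSO libraries, 2 of 10 members without overlap beside 8.51% of all genes. The 95% intervals were -0.26 to 0.17 for MCL1, -0.31 to 0.28 for BID, -0.64 to 0.24 for BBC3, -0.36 to 0.25 for BAX and -0.39 to 0.22 for BIK. They were wider for BAK1 (-0.34 to 0.91), BCL2L11 (-0.98 to 1.07) and BCL2A1 (-1.69 to 2.00).

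The response to 1E5 differed among the 3 lines for 6 of 10 members in 1 fit of all libraries, where 38.5% of all genes did. These were BCL2L1 (adjusted p = 4.88e-09), MCL1 (0.000127), BID (0.000521), PMAIP1 (0.00106), BBC3 (0.00143) and BAX (0.00483, and 0.0505 with no filter on low counts). The response of BCL2L1 was larger in MIA PaCa-2 than in PANC-1 by 0.83 ± 0.197 on the log2 scale (adjusted p = 0.00194, where 28.4% of genes passed). It was larger than in BxPC-3 by 2.31 ± 0.199 in MIA PaCa-2 (3.53e-09, 27.5% of genes) and by 1.48 ± 0.196 in PANC-1 (3.52e-06, 15.4% of genes). MCL1 also responded more in MIA PaCa-2 than in PANC-1 (0.62 ± 0.202, adjusted p = 0.0212), and BAX less (-0.54 ± 0.157, adjusted p = 0.00924). Against BxPC-3, the responses in MIA PaCa-2 also differed for PMAIP1 (2.32), BBC3 (2.17), MCL1 (1.19) and BID (-0.88), with adjusted p from 5.42e-05 to 0.000637. Those in PANC-1 differed from BxPC-3 for PMAIP1 (1.35, adjusted p = 0.0434), BAX (0.59, 0.00942) and BID (-0.79, 0.00349). For PMAIP1 (0.97 ± 0.485, adjusted p = 0.143), BBC3 (0.99 ± 0.449, 0.101) and BID (-0.09 ± 0.186, 0.833) the difference between MIA PaCa-2 and PANC-1 did not pass.

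With 3A4 2 members were called in MIA PaCa-2, PMAIP1 and MCL1, and 2 in PANC-1, BCL2L1 and BCL2A1. In MIA PaCa-2 it raised PMAIP1, from the DMSO values above to 20.5, 12.4 and 18.2 CPM (2.30-fold, log2 fold change 1.20 ± 0.249, adjusted p = 0.0106), and all 3A4 libraries lay above all DMSO libraries. MCL1 rose 1.42-fold, to 399, 483 and 426 CPM (0.50 ± 0.146, adjusted p = 0.0382). The MCL1 call ended without 3A4 replicate 2 (0.132) or 3 (0.0713) or any of the DMSO replicates (0.0525, 0.108 and 0.115), in a fit of only those groups (0.0588) and at equal depth (0.0578). BCL2L1 stood at 83.3, 77.4 and 72.4 CPM, above each DMSO library, and was not called (0.50 ± 0.161, adjusted p = 0.0577, 0.0125 by DESeq2 and 0.00475 to 0.194 over all alternatives), while BBC3 (0.14 ± 0.301) and BID (-0.38 ± 0.140, adjusted p = 0.0884) were not called. Nor were BCL2L11 (-0.39 ± 0.357), BAX (-0.19 ± 0.111), BAK1 (0 ± 0.319) and BIK (-0.58 ± 1.14). The groups did not overlap for 5 of 9 members and 36.1% of all genes. The 2 calls among 9 members, both higher, stand beside 13.8% of all genes called (7.3% higher, 6.45% lower), and the members' median log2 fold change was 0 against 0.03 over all genes.

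In PANC-1 the member that moved most with 3A4 was BCL2A1, the guardian BFL1. It had 2.27, 1.91 and 2.29 CPM with DMSO and 13.2, 18.1 and 16.3 CPM with 3A4, a 7.34-fold rise (log2 fold change 2.88 ± 0.326, adjusted p = 0.00113). The groups did not overlap, and the call held in all 13 alternatives, with adjusted p up to 0.0167. BCL2L1 rose 1.44-fold, to 155, 199 and 156 CPM (0.53 ± 0.118, adjusted p = 0.0223), lost without 3A4 replicate 2 (0.077), DMSO replicate 2 (0.0896) or DMSO replicate 3 (0.0773). With 2 of 9 members called, 7.37% of all genes passed (3.53% higher, 3.84% lower), and 6 of 9 members had no overlap, beside 37.3% of all genes. The sum of immune markers given above was also higher in these 3A4 libraries than with DMSO, and with 1E5, where BCL2A1 was lower. In BxPC-3 that sum was 22.8 to 25.4 CPM with 3A4 against 9.92 to 15.3 with DMSO. A link of these markers with BCL2A1 was not tested. Without the 1E5 libraries in the PANC-1 fit, BBC3 (-0.87 ± 0.386, adjusted p = 0.189 with them, 0.0333 without and 0.0496 with only the compared groups) and BAK1 (0.36 ± 0.195, 0.282 and 0.0251) were called as well. PMAIP1 had 8.31, 13 and 14.6 CPM and was not called (0.57 ± 0.256, adjusted p = 0.194). Nor were BCL2L11 (-1.66 ± 0.598, adjusted p = 0.114), BAX (0.22 ± 0.103), BID (-0.16 ± 0.141) and MCL1 (0.06 ± 0.170).

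In BxPC-3 no member was called with 3A4 by edgeR, where 0.0333% of all genes were. At an unadjusted p under 0.05 there were 3 members, beside 2292 of all 18042 genes. DESeq2 called 340 genes, among them 2 members, BIK and MCL1. BIK had 15.2, 13.8 and 18.2 CPM with DMSO and 30.0, 26.6 and 26.6 CPM with 3A4 (0.81 ± 0.138, adjusted p = 0.0856, and 0.000177 by DESeq2), with no overlap. MCL1 had 419, 433 and 395 CPM with DMSO and 308, 356 and 311 CPM with 3A4 (-0.35 ± 0.1, adjusted p = 0.219, and 0.0436 by DESeq2). BCL2A1, at 0.875, 0 and 2.14 CPM with DMSO and 3.92, 2.37 and 5.32 CPM with 3A4, was not called (1.93 ± 0.834, adjusted p = 0.368). These 3 members had no overlap between groups, beside 19.1% of all genes. The log2 fold changes of the others were 0.05 for BCL2L1, 0.34 for BCL2L11, 0.03 for BBC3, -0.23 for PMAIP1, 0.22 for BAX, 0.47 for BAK1 and -0.09 for BID. The BCL2A1 response did not differ beyond the error between PANC-1 and BxPC-3 (0.94 ± 0.951, adjusted p = 0.874, where 0.443% of genes passed), and it could not be compared with MIA PaCa-2, where it had no counts. The response to 3A4 differed among lines for 1 of 10 members, MCL1 (adjusted p = 0.0109, and 0.058 without MIA PaCa-2 3A4 replicate 2), where 5.89% of all genes passed. The MCL1 response was larger in MIA PaCa-2 than in BxPC-3 by 0.97 ± 0.202 (adjusted p = 0.00564, where 4.56% of genes passed). Between MIA PaCa-2 and PANC-1 no member's response to 3A4 passed (5.08% of genes did). Without BxPC-3 DMSO replicate 3 the response of PMAIP1 to 3A4 also differed among lines (0.0464, against 0.118 with it).

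**Figure D3:**
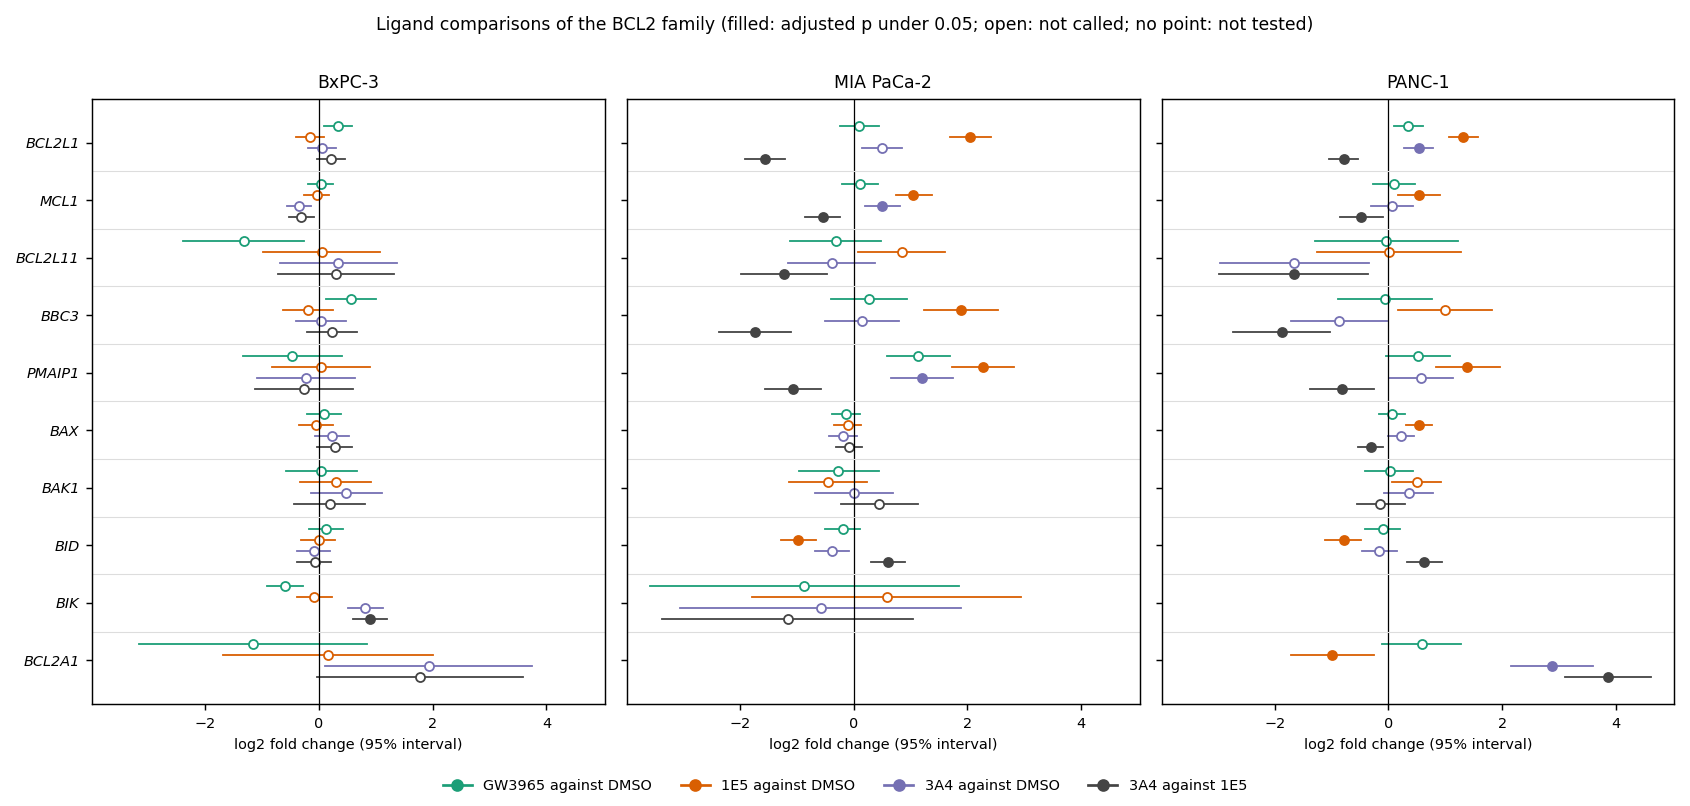
Log2 fold changes of the members with 95% intervals for 4 ligand comparisons in each line, filled where the adjusted p is under 0.05 and missing where the gene was not tested. BxPC-3 has 1 filled point, BIK with 3A4 against 1E5, while in MIA PaCa-2 and PANC-1 the points for 1E5 against DMSO and for 3A4 against 1E5 lie on opposite sides of 0 for BCL2L1, PMAIP1 and BID.

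Set directly against each other at the same dose and time, 3A4 left BCL2L1, MCL1, BCL2L11, BBC3 and PMAIP1 lower than 1E5, and BID higher, in both MIA PaCa-2 and PANC-1. This is a single pair of compounds compared in each of 3 lines, and it shares the 1E5 and 3A4 libraries with the comparisons against DMSO. In MIA PaCa-2 6 of 9 members were called (32.4% of all genes were, 17.2% higher and 15.1% lower), with BCL2L1 2.94-fold lower (log2 difference -1.56 ± 0.161, adjusted p = 2.01e-05) and BBC3 3.35-fold lower (-1.74 ± 0.292, 0.000647). PMAIP1 was 2.10-fold lower (-1.07 ± 0.231, 0.00347) and BID 1.52-fold higher (0.60 ± 0.139, 0.00547), and the libraries of each of these genes did not overlap, nor did those of MCL1, BCL2L11 and BIK, 7 of 9 members beside 50.7% of all genes. MCL1 (-0.55 ± 0.145, 0.0115) was lost without 3A4 replicate 1 (0.0607) or 1E5 replicate 3 (0.0503). BCL2L11 (-1.23 ± 0.348, 0.0167) was lost in 5 of 13 alternatives, 4 of which left out 1E5 replicate 1 (0.0584) or 2 (0.0824) or 3A4 replicate 1 (0.0517) or 3 (0.0585). BAX was not called (95% interval -0.32 to 0.15), nor were BAK1 (-0.23 to 1.13) and BIK (-3.37 to 1.05).

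In PANC-1 8 of 9 members differed between the inverse agonists, where 37.3% of all genes did (18.5% higher, 18.8% lower). The widest gap was in BCL2A1, 14.5-fold higher with 3A4 than with 1E5 (log2 difference 3.86 ± 0.345, adjusted p = 1.44e-05). BCL2L1 was 1.73-fold lower (-0.79 ± 0.118, 0.000372) and BID 1.55-fold higher (0.63 ± 0.142, 0.00476). BBC3 had 3.86, 5.91 and 4.34 CPM with 3A4, below each 1E5 library (-1.87 ± 0.391, 0.0031), and the difference was -1.21 without 1E5 replicate 2 (0.00352). Calls near the threshold were PMAIP1 (-0.82 ± 0.254, 0.0251), BAX (-0.31 ± 0.103, 0.0331), MCL1 (-0.48 ± 0.170, 0.0456) and BCL2L11 (-1.67 ± 0.597, 0.0461), and each was lost when single libraries were left out. BCL2L11 had 14.4, 9.39 and 5.62 CPM with 3A4 and 20.3, 27.0 and 46.8 CPM with 1E5, and the groups of MCL1 overlapped. In all 7 of 9 members had no overlap, beside 49.1% of all genes. PMAIP1 was lost without 3A4 replicate 1 (0.095) or 1E5 replicate 3 (0.101). MCL1 and BCL2L11 were each lost without any 1 of the 3A4 libraries or of 1E5 replicates 2 and 3, with adjusted p up to 0.137 and 0.156. BAX was lost without any 1 of the 3A4 libraries or of 1E5 replicates 1 and 3, with adjusted p up to 0.0971. With no filter MCL1 (0.0581), BCL2L11 (0.0535) and BAX (0.0694) were lost, with only the compared groups PMAIP1 (0.0639), MCL1 (0.108) and BAX (0.0765), and with all 36 libraries PMAIP1 (0.0547). BAK1, at 70.4, 64.5 and 63.9 CPM with 3A4, was not called (adjusted p = 0.622) but was without 1E5 replicate 2 (0.00973).

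BxPC-3 had 1 member called between 3A4 and 1E5, BIK, where 0.144% of all genes were called. BIK had 16.3, 12.6 and 15.6 CPM with 1E5 and was 1.87-fold higher with 3A4 (0.90 ± 0.139, adjusted p = 0.0337). The groups stood apart, as for 4 of 10 members and 19.7% of all genes, but the call was lost in 8 of 12 alternatives, among them every fit without 1 of the 3A4 libraries (0.137, 0.0914 and 0.0889) or without 1E5 replicate 2 (0.148) or 3 (0.134). The other log2 differences in BxPC-3 were 0.21 for BCL2L1, -0.31 for MCL1, 1.77 for BCL2A1, 0.30 for BCL2L11, 0.23 for BBC3, -0.26 for PMAIP1, -0.08 for BID, 0.28 for BAX and 0.19 for BAK1. In PANC-1 BIK had 19 counts in all 12 libraries, all of them in 2 of the 3A4 libraries, and was not tested.

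With the agonist GW3965 no member was called in any line by edgeR, where 0.0485% of genes were called in PANC-1, 0.523% in MIA PaCa-2 and 1.32% in BxPC-3. At an unadjusted p under 0.05 there were 4 members in BxPC-3 and 1 each in MIA PaCa-2 and PANC-1. Of all genes, 2177 of 18042, 1420 of 16254 and 831 of 18544 were under it in these lines. DESeq2 called 1, 1 and 0 members, beside 550, 255 and 91 genes, in the same order. BIK in BxPC-3 had 11, 10.1 and 10.1 CPM, below each DMSO library (-0.60 ± 0.140, adjusted p = 0.0695, and 0.0115 by DESeq2). PMAIP1 in MIA PaCa-2 had 13.7, 20.4 and 13.4 CPM, above each DMSO library (1.13 ± 0.255, adjusted p = 0.0959, and 0.00812 by DESeq2). BCL2L11 in BxPC-3 had 4.57, 3.41 and 4.74 CPM, below each DMSO library and not called (-1.32 ± 0.488, adjusted p = 0.291). BCL2L1 lay above the DMSO range in BxPC-3, at 211, 188 and 207 CPM (0.33 ± 0.114, adjusted p = 0.249), and in PANC-1, at 146, 167 and 137 CPM (0.35 ± 0.117, adjusted p = 0.848). For MCL1 the 95% intervals were -0.27 to 0.47 (PANC-1), -0.21 to 0.43 (MIA PaCa-2) and -0.19 to 0.25 (BxPC-3). The groups did not overlap for 4 of 10 members in BxPC-3 (17.3% of all genes), 3 of 9 in MIA PaCa-2 (13.7%) and 3 of 9 in PANC-1 (11.9%). In BxPC-3 the other log2 fold changes were 0.56 for BBC3 (adjusted p = 0.263), -0.47 for PMAIP1, 0.12 for BID, 0.09 for BAX, 0.04 for BAK1 and -1.17 for BCL2A1. In MIA PaCa-2 they were 0.10 for BCL2L1, -0.32 for BCL2L11, 0.27 for BBC3, -0.19 for BID, -0.14 for BAX, -0.27 for BAK1 and -0.87 for BIK. In PANC-1 they were -0.04 for BCL2L11, -0.06 for BBC3, 0.52 for PMAIP1, -0.10 for BID, 0.06 for BAX, 0.02 for BAK1 and 0.59 for BCL2A1. The response to GW3965 differed among lines for 0 of 10 members (0.104% of all genes), with the lowest adjusted p at 0.448, for PMAIP1.

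Over the 12 group means, each centred on its line, BCL2L1, MCL1, BBC3 and PMAIP1 ran together and BID ran opposite to them. These correlations are descriptions over group means that share libraries, lines and the same 1E5 groups. Pearson's r was 0.91 between BCL2L1 and MCL1, 0.87 between BCL2L1 and BBC3, 0.84 between BCL2L1 and PMAIP1, 0.87 between MCL1 and PMAIP1, 0.82 between MCL1 and BBC3 and 0.69 between BBC3 and PMAIP1. BAX, which rose with 1E5 in PANC-1, had r = 0.51 with BCL2L1, 0.24 with MCL1, 0.38 with BBC3 and 0.32 with PMAIP1, and BCL2L11 had 0.32, 0.32, 0.54 and 0.40 with the same genes. BID had r = -0.92 with BCL2L1, -0.90 with PMAIP1, -0.82 with MCL1 and -0.80 with BBC3. The pore formers BAX and BAK1 had r = 0.56 with each other, and BAK1 had r = -0.16 with BCL2L1. Among 11507 genes compared, those most like BCL2L1 were ITPKC (r = 0.987), UNC13D (0.986) and AFAP1L1 (0.979). EXOSC8 (0.977), ZNF484 (0.971) and RPS6KC1 (0.965) were most like PMAIP1. AKR1C1 (0.982) and DNAJB9 (0.979) were among the 3 most like MCL1.

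Beyond these 10 genes, 13 other BCL2 family genes were followed. Of all genes, 23.6% were called higher and 23.4% lower with 1E5 in MIA PaCa-2. In PANC-1 these shares were 19.7% and 19.3% with 1E5, and 3.53% and 3.84% with 3A4. With 1E5 in MIA PaCa-2 4 of 10 tested rose and 2 fell (median log2 fold change 0.06). HRK, another BH3-only gene, went from 1.10 ± 0.745 to 9.58 ± 2.30 CPM (adjusted p = 0.00324), BCL2 itself from 5.50 ± 2.13 to 19.7 ± 1.08 CPM (0.000431), and the BH3-only gene BAD fell from 33.3 ± 11.1 to 10.8 ± 2.03 CPM (0.000163). In PANC-1 with 1E5 2 of 11 rose and 1 fell, with BCL2L13 rising 2.23-fold (2e-05), HRK at 1.06 ± 0.368 and 3.63 ± 1.93 CPM (0.0145) and BOK, a BAX relative, lower at 38.6 ± 5.20 than at 64.3 ± 4.19 CPM (0.000648). With 3A4 in PANC-1 1 of 11 rose and 4 fell, among them the BH3-only gene BMF from 19.9 ± 7.26 to 3.69 ± 2.11 CPM (0.015). BNIP3 and BNIP3L, mitophagy receptors with BH3-like regions, fell 1.68-fold (0.0345) and 1.70-fold (0.0229). With GW3965 in BxPC-3 1 of 13 rose and 1 fell, where 1.32% of all genes were called. The riser was BCL2, at 1.77-fold (0.00999).

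Genes of the stress responses that are known to feed into BH3-only genes, regulators and outputs alike, rose with 1E5 in both lines. In MIA PaCa-2 8 of 9 were called higher and in PANC-1 8 of 9, with median log2 fold changes of 2.51 and 1.72. Of all genes, 23.6% and 19.7% were called higher with 1E5 in these lines, and 7.3% and 3.53% with 3A4. With GW3965 0.523% of all genes were called in either direction in MIA PaCa-2, 1.32% in BxPC-3 and 0.0485% in PANC-1. ATF3, a stress-induced transcription factor, went from 3.46 ± 1.54 to 102 ± 36.1 CPM in MIA PaCa-2 (adjusted p = 1.99e-06) and in PANC-1 from 13.9 ± 11 to 162 ± 79.4 CPM (0.000375). DDIT3, which encodes CHOP, went from 16.9 ± 3.68 to 155 ± 27.1 CPM (2.79e-06) and from 37.4 ± 17.3 to 199 ± 79.5 CPM (0.000282). With 3A4 8 of 9 rose in MIA PaCa-2 (median 1.40) and 1 of 9 in PANC-1 (median 0.14), PPP1R15A, from 28.4 ± 5.75 to 67.0 ± 10.5 CPM (0.00264). With GW3965 5 of 9 rose in MIA PaCa-2, with CHAC1 going from 4.37 ± 0.303 to 24.5 ± 9.45 CPM (0.0166), 1 rose in BxPC-3 and none in PANC-1. These lists were chosen with earlier results on these libraries known, and their counts are descriptions. Whether these genes act on the members was not tested.

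**Figure D4:**
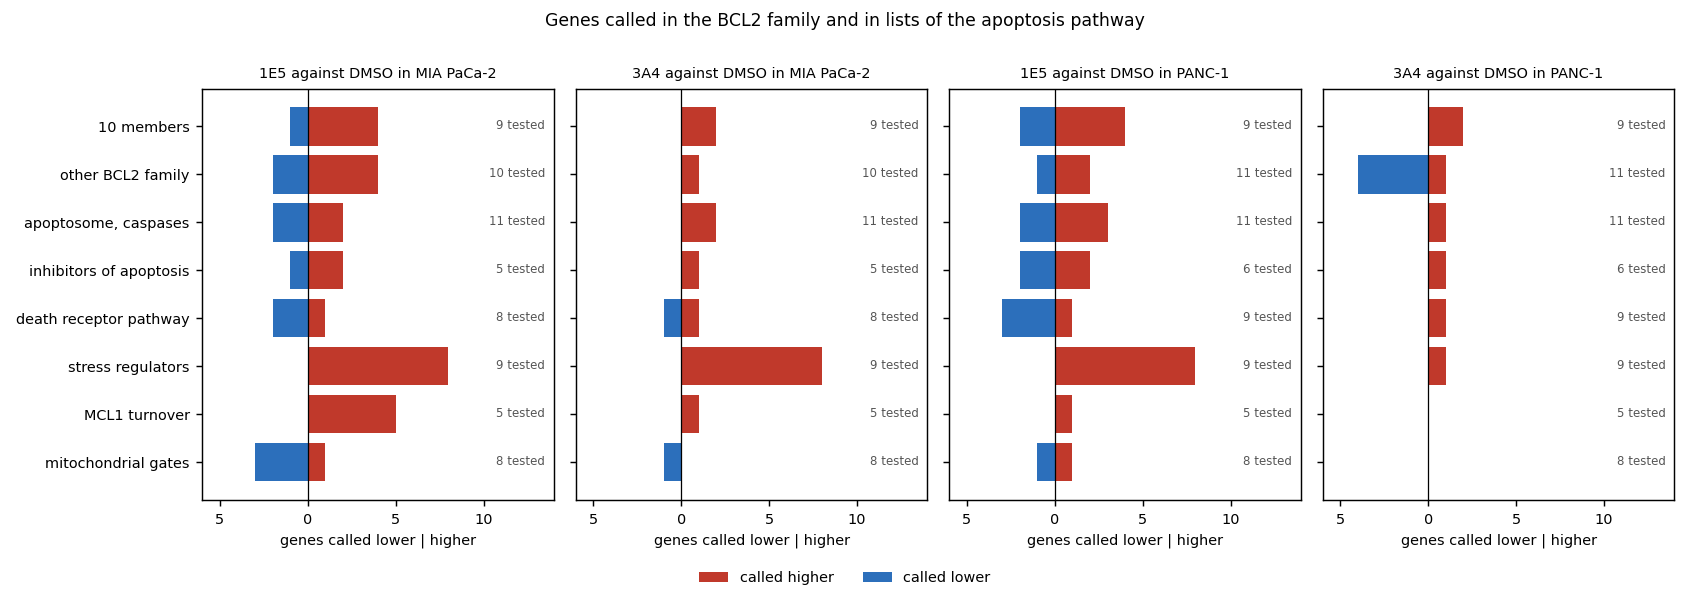
Number of genes called higher (right) and lower (left) in the BCL2 family members and 7 lists of the apoptosis pathway, for 1E5 and 3A4 against DMSO in MIA PaCa-2 and PANC-1, with the number tested at the right. The list marked stress regulators, which also holds outputs of the stress responses, has 8 of 9 called higher in 3 of the 4 panels, and 1 of 9 with 3A4 in PANC-1. Of all genes, 23.6% (1E5) and 7.3% (3A4) were called higher in MIA PaCa-2, and 19.7% and 3.53% in PANC-1.

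Downstream of the mitochondria the changes were mixed in direction. Of 11 apoptosome and caspase genes, 2 rose and 2 fell with 1E5 in MIA PaCa-2 and 3 rose and 2 fell in PANC-1, and with 3A4 2 and 1 rose and none fell. Of all genes, 23.6% were called higher and 23.4% lower with 1E5 in MIA PaCa-2, and 19.7% and 19.3% in PANC-1. With 3A4 the shares were 7.3% and 6.45% in MIA PaCa-2, and 3.53% and 3.84% in PANC-1. CYCS, which encodes cytochrome c, had 148 ± 14.2 CPM with DMSO, 268 ± 85.4 with 1E5 (adjusted p = 0.0201) and 357 ± 143 with 3A4 (0.0123) in MIA PaCa-2. APAF1, the apoptosome scaffold, fell with 1E5 in PANC-1 from 32.2 ± 1.83 to 20.1 ± 0.691 CPM (0.00036). Among inhibitors of apoptosis, BIRC5 (survivin) fell with 1E5 from 53.3 ± 19.9 to 8.20 ± 2.52 CPM in MIA PaCa-2 (3.1e-05) and from 53.8 ± 19.1 to 9.86 ± 3.17 CPM in PANC-1 (0.000148). BIRC3 rose with 1E5 in MIA PaCa-2, from 13.2 ± 1.88 to 64.1 ± 14.3 CPM (4.85e-06), and fell in PANC-1, from 126 ± 26.2 to 35.1 ± 4.84 CPM (2e-05). With 3A4 BIRC3 rose in both, reaching 68.5 ± 9.46 CPM in MIA PaCa-2 (0.000222) and 257 ± 22.6 CPM in PANC-1 (0.00664).

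The counts of this paragraph stand beside 23.6% of all genes called higher and 23.4% lower with 1E5 in MIA PaCa-2. In PANC-1 these shares were 19.7% and 19.3%. Of the death receptor genes, 1 rose and 2 fell with 1E5 among 8 in MIA PaCa-2, and 1 rose and 3 fell among 9 in PANC-1. The riser in both was TNFRSF10B, the TRAIL receptor DR5, from 110 ± 9.04 to 379 ± 28.9 CPM (adjusted p = 8.47e-07) and from 76.0 ± 12.1 to 161 ± 3.64 CPM (0.000197). All 5 genes of MCL1 protein turnover rose with 1E5 in MIA PaCa-2 and 1 of 5 in PANC-1, FBXW7, a ubiquitin ligase component, at 2.04-fold (0.00252). USP9X, a deubiquitinase that stabilises MCL1, rose 2.72-fold in MIA PaCa-2 (9.22e-05). Among 8 genes of the mitochondrial gates, the VDAC channels and the adenine nucleotide carriers included, 1 rose and 3 fell with 1E5 in MIA PaCa-2, and 1 rose and 1 fell in PANC-1. SLC25A6, an adenine nucleotide carrier, fell 1.89-fold with 1E5 (0.00152) and 1.95-fold with 3A4 (0.0084) in MIA PaCa-2.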

How the data were processed

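RNA was sequenced from 36 libraries of 3 pancreatic cancer lines. Gene-level counts, as whole numbers, stand in 1 table that the authors deposited. Per the submitters' processing notes, Trim Galore 0.4.4, HISAT2 2.0.2, SAMtools 1.3, StringTie 1.3.1c and the build GRCh38 were used, with no role or order. Not given in the sources used here are the annotation, whether strand was used, and how multi-mapped reads were handled, which leaves overlapping genes uncertain. The 407 lines that named a transcript and 8 other lines that named no gene held at most 0.00396% of a library's counts and were left out.

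Counts were analysed as deposited with the quasi-likelihood test of edgeR 4.0.16 in R 4.3.3, two-sided, with TMM scaling and filterByExpr (count of about 10, total of at least 15). There was 1 fit per line of 12 libraries, over 18042 genes in BxPC-3, 18544 in PANC-1 and 16254 in MIA PaCa-2. Untreated lines and differences of response between lines came from a single model of the 36 libraries with 22132 genes. Adjustment was by the Benjamini-Hochberg method across every gene tested, and "called" means an adjusted p under 0.05. CPM is the count over the TMM-scaled library total. Within-line levels were scaled in each line's fit, and levels compared across lines in the fit of all libraries. Values after ± are SD for levels and SE for log2 differences. Folds against a group at 0 use a floor of 3 counts over the group and cover counting error only, as does the limit for a count of 0. Depth per library sets the precision and was lowest in MIA PaCa-2 with DMSO and GW3965. Levels per kilobase used exon lengths of GENCODE 29. Library preparation started from total RNA with a stranded kit, per the labels' protocols.

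The members and lists were chosen with earlier results of these data known. All 10 members were named in every comparison, with up to 3 genes of each list with the largest called change and at least 2 CPM, and the 3 genes most like each of the 3 members called most often (group means of log2 CPM with a pseudocount of 1, genes of at least 5 CPM). The level markers were named after their values were seen. Some genes and 1 list are not reported here. The alternatives were RLE scaling, no filter, DESeq2 1.42.0, only the compared groups, all 36 libraries in 1 fit, each library left out, the replicate number as a block, MIA PaCa-2 thinned to its smallest total, and no 1E5 libraries. The tests of response between pairs of lines were added after seeing the data. The code was tested on simulated data.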

Additional observations from a re-analysis of the deposited data

Results flagged for a closer look

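Of the 10 members, 6 responded to 1E5 by amounts that differed among the 3 lines, by the edgeR test of the difference itself with 2 degrees of freedom. Of all genes 38.5% passed this test. The adjusted p was 4.88e-09 for BCL2L1, 0.000127 for MCL1, 0.000521 for BID, 0.00106 for PMAIP1, 0.00143 for BBC3 and 0.00483 for BAX. BAX did not pass with no filter on low counts (0.0505). The log2 fold changes of BCL2L1 were 2.05 in MIA PaCa-2, 1.32 in PANC-1 and -0.16 in BxPC-3, and those of BID were -0.98, -0.79 and -0.01. The log2 fold change of BAX was 0.53 in PANC-1 and -0.11 in MIA PaCa-2. For 3A4 the difference among lines passed for MCL1 (adjusted p = 0.0109), with log2 fold changes of 0.50 in MIA PaCa-2, 0.06 in PANC-1 and -0.35 in BxPC-3. It did not pass without MIA PaCa-2 3A4 replicate 2 (0.058), and 5.89% of all genes passed this test. Depth and mitochondrial share also differed between these libraries, as did growth medium between BxPC-3 and the other lines. Their part in these differences was not tested. The fit at equal depth covered only comparisons within MIA PaCa-2.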

How the results depend on the processing

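Of 58 member calls, pooled over ligand comparisons, DMSO lines and responses among lines, 42 were kept in every alternative run for them. Most of the calls lost in some alternative were in ligand comparisons. No member's called value changed sign. Over the members' tests under all alternatives, 2287 kept their side of the threshold, 69 lost a call and 30 gained one. Leaving out single libraries gave 49 of the losses and 10 of the gains. With DESeq2 1 member was called for GW3965 in BxPC-3, 2 for 3A4 against DMSO in BxPC-3 and 1 for GW3965 in MIA PaCa-2, against 0 by edgeR. Of all genes, DESeq2 called 550, 340 and 255 in these comparisons. For 3A4 against 1E5 in BxPC-3 the 1 call became 0 with no filter, with only the compared groups and with all 36 libraries in 1 fit, and in PANC-1 the 8 calls became 5 with no filter and 5 with only the compared groups. For 3A4 against DMSO the 2 calls in MIA PaCa-2 became 1 with only the compared groups and 1 when thinned, and the 2 in PANC-1 became 4 without the 1E5 libraries. With 1 library left out, members called ranged from 0 to 1 (3A4 against 1E5, BxPC-3), from 1 to 2 (3A4 against DMSO, MIA PaCa-2 and also PANC-1), from 4 to 7 (3A4 against 1E5, PANC-1) and from 0 to 2 (3A4 response among lines). For 1E5 against DMSO they ranged from 4 to 7 in PANC-1 and from 5 to 6 in MIA PaCa-2. For 3A4 against 1E5 in MIA PaCa-2 they ranged from 4 to 6. Between DMSO lines they ranged from 6 to 8 (BxPC-3 against PANC-1), 7 to 9 (BxPC-3 against MIA PaCa-2) and 6 to 7 (MIA PaCa-2 against PANC-1). Deviations of same-numbered libraries correlated weakly (-0.06 to 0.23, not all over 0.1 in any comparison), and the labels give no shared source, so the number was not taken as a pairing. With the replicate number as a block 1 member was called for GW3965 in BxPC-3 (BIK, adjusted p = 0.0329), 1 for 3A4 against DMSO in BxPC-3 (BIK, 0.021) and 2 for the 3A4 response among lines (BCL2L1 gained, 0.0479). The block also gained BCL2L1 with 3A4 in MIA PaCa-2 (0.0251), BBC3 with 1E5 in PANC-1 (0.0234) and PMAIP1 with 3A4 in PANC-1 (0.0389), and lost BCL2L11 for 3A4 against 1E5 in PANC-1 (0.0702). In 6 of the 12 within-line comparisons every library of the first group correlated best with its own number. Genes called over the whole table ranged, for 3A4 against DMSO, from 429 to 3020 (1367 as reported) in PANC-1, from 749 to 3820 (2235) in MIA PaCa-2, and from 0 to 340 (6) in BxPC-3. For 3A4 against 1E5 in BxPC-3 they ranged from 0 to 433 (26). For GW3965 they ranged from 4 to 91 (9) in PANC-1, from 16 to 255 (85) in MIA PaCa-2, and from 68 to 550 (239) in BxPC-3. For 1E5 in BxPC-3 they were 9 with DESeq2 (0). For responses that differ among lines they ranged from 588 to 2053 (1304) for 3A4 and 14 to 52 (23) for GW3965. The causes were not tested. BIK and BCL2A1 had DMSO libraries at 0 counts, where depth sets only how low a level could be seen. Deep groups also had zeros. BIK was at 0 in the PANC-1 DMSO group of 70660079 counts, and BCL2A1 in the MIA PaCa-2 1E5 group of 73553915.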

Other observations

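The untreated lines also differed in family and pathway genes outside the 10 members. BNIP3, a mitophagy receptor of the family, stood at 144 ± 33.5 CPM in PANC-1, 0.816 ± 0.767 in MIA PaCa-2 and 0.618 ± 0.508 in BxPC-3 (edgeR adjusted p = 9.78e-13 and 3.96e-14 against PANC-1). BCL2, the founding guardian, ran the other way, at 0.705 ± 0.466 CPM in PANC-1, 5.22 ± 2.09 in MIA PaCa-2 and 8.54 ± 0.21 in BxPC-3 (1.01e-06 and 1.78e-08). CASP10, an initiator caspase, was 44.6-fold higher in BxPC-3 than in PANC-1 (8.71e-11) and 27.7-fold higher in MIA PaCa-2 than in PANC-1 (1.23e-09). SLC25A6, an adenine nucleotide carrier of the inner membrane, stood at 2420 ± 18.7 CPM in MIA PaCa-2 and at 176 ± 26.3 in PANC-1 (5.74e-15).

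Of 9 death receptor genes, 6 were higher and 1 lower in BxPC-3 than in PANC-1, where 52.5% of all genes were called. TNFSF10, which encodes the ligand TRAIL, stood at 77.2 ± 14.5 CPM in BxPC-3, 3.78 ± 0.881 in PANC-1 and 2.23 ± 1.93 in MIA PaCa-2 (adjusted p = 2.19e-07 and 8.39e-08 against BxPC-3). GW3965 lowered it in BxPC-3 to 27.8 ± 10.1 CPM, 2.59-fold below DMSO (0.0307).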
